A study of Mus musculus with 18 samples.

Results

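The subject was a set of 47 genes of S and M phase, the parts of the cell cycle in which DNA is copied and then divided between daughter cells. The set was given by name and not picked here by a measured value, but its members were chosen with earlier results of these data known. It held 25 mitosis genes and 22 replication genes out of 18193 genes that could be read on the arrays. A gene was read from its brightest probe set, the group of array probes for 1 gene symbol with the highest mean over all arrays. In this way 46 members were measured, 24 of mitosis and all 22 of replication. Ccnb1, the gene of cyclin B1, had no probe set under that symbol alone in the annotation used here, and probe sets with several symbols were not used.

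The arrays measured RNA of splenic CD4 T cells, isolated on magnetic beads from C57BL/6 mice that were 9 to 15 weeks old. The genotypes were wild type (WT), Gli2A transgenic (Gli2A Tg, with an activating form of the Hedgehog pathway factor Gli2) and Gli2R transgenic (Gli2R Tg, with a repressing form). Cells of each genotype were used fresh, called resting here, or after 6 h with antibodies to CD3 and CD28, which act on the T cell receptor complex and on a co-stimulatory receptor. Each of the 6 groups had 3 arrays, 18 in all. Which promoter drives the transgenes was not given in the sources used here, and no label says whether replicates came from separate mice. P-values therefore speak of the spread among these samples alone, which may be technical. No cells kept for 6 h without antibodies were analysed here, so time in culture and stimulation cannot be told apart.

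Before S phase a cell loads the MCM helicase at replication origins. On entering S phase it raises enzymes that make DNA building blocks and opens the helicase with Cdc45 and the GINS complex. In G2 and M phase, cyclin-dependent kinase 1, Aurora and Polo kinases drive spindle assembly, and the anaphase-promoting complex then destroys cyclins so that cells can leave mitosis. Mature T cells in blood and spleen are mostly quiescent, outside the cycle. They take many hours after an antigen signal to reach their first S phase, and E2F factors switch on many replication genes on the way. Late cycle genes are commonly controlled through CCAAT boxes and the cell cycle genes homology region, or CHR.

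To show what the promoters of these genes look like, the 250 bases before the transcription start were read from RefSeq promoters on GRCm38.p6 for 39 of the 46 measured members. Short words were searched on both strands. The E2F-like words were TTCCCGC or TTCGCGC and, with a G after the first 2 letters, TTGCCGC or the related TTGGCGC. The CHR words were TTTGAA and, with C in the middle, TTCGAA, and the CCAAT box was searched as spelled. An E2F-like word occurred in 8 of 19 replication promoters (42.1%) and in 2 of 20 mitosis promoters (10%), against 11.6% of 14452 promoters of all genes read on the arrays. A CHR word occurred in 8 of 20 mitosis promoters (40%) and 4 of 19 replication promoters (21.1%), against 13.4%. CCAAT occurred in 16 of 20 mitosis promoters (80%) and 12 of 19 replication promoters (63.2%), against 35.7%, and at least 2 copies in 50% and 26.3%, against 12.1%. A match is a run of letters and not evidence of a bound factor. The promoters below are from the genes of each kind with the largest stimulation differences among those matched. Birc5 and Tk1, which also rank there, held none of these words and are not shown. Capitals mark the words, ATTGG being CCAAT on the other strand. In Ube2c a CCAAT and an ATTGG overlap, and for E2f2 the table has 2 starts. The first start of a gene in the table is shown and counted.
Ube2c (chr2:164769679-164769928, plus strand): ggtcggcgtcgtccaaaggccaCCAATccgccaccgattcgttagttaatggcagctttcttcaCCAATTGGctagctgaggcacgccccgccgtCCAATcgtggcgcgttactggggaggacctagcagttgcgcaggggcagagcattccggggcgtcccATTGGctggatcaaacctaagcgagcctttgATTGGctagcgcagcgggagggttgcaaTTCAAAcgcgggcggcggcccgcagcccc
Mki67 (chr7:135716380-135716629, minus strand): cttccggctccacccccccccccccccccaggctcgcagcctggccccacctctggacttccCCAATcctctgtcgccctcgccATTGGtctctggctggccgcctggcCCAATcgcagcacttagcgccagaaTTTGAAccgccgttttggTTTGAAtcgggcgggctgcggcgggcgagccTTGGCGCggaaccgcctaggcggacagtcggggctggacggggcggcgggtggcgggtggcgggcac
Cdk1 (chr10:69352913-69353162, minus strand): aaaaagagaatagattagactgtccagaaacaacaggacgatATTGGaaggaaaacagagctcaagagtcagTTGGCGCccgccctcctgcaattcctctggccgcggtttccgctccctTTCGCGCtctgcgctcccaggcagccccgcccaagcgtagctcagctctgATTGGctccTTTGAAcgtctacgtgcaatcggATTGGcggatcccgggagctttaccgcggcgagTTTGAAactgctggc
Rrm2 (chr12:24708004-24708253, plus strand): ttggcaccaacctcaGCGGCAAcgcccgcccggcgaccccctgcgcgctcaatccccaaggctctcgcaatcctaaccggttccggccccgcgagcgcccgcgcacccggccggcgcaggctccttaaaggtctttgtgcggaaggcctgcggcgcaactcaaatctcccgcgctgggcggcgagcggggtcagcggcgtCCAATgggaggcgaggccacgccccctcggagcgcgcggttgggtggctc
E2f2 (chr4:136172024-136172273, plus strand): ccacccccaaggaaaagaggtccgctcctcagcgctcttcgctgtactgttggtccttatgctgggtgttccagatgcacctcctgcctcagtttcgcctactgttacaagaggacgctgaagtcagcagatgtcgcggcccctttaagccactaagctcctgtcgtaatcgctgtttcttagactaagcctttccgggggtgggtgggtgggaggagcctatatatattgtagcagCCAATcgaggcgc
Cdc6 (chr11:98907901-98908150, plus strand): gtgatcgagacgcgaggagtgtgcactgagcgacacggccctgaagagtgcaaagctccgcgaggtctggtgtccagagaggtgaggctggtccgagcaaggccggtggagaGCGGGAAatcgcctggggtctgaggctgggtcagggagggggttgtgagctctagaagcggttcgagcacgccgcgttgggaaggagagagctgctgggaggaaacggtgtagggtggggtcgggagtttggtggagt
The mitosis promoters shown, Ube2c, Mki67 and Cdk1, each hold at least 1 CHR word and 3 or more CCAAT words, and Mki67 and Cdk1 also hold E2F-like words. The replication promoters shown hold 1 CCAAT word (Rrm2 and E2f2) or none (Cdc6), and no CHR word, and Rrm2 and Cdc6 hold 1 E2F-like word each. At its second start E2f2 holds 1 CHR and 3 CCAAT words.

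Values are log2 of the deposited intensity plus 16, which understates the change of dim genes, and the number of arrays limits their precision. The median gene lay at 7.06 and the lower quartile ended at 5.37. Resting Gli2A Tg replicate 3 stood apart from the other resting arrays on the second principal component, and stimulated Gli2A Tg replicate 2 had the highest 3' to 5' ratio of actin, 3.0 against 1.82 in the next array. Y-linked genes exceeded Xist on 2 of 3 resting WT arrays, on 1 of 3 WT arrays after stimulation, on 2 of 3 Gli2R Tg arrays after stimulation and on 0 in the other groups, and a part of sex in these results was not tested. Replicate 3 was the highest array in 6 of 6 groups for the mean of the mitosis genes, of the replication genes and of the erythroid markers. T cell markers were bright on every array, but their level differed between groups. The summed intensity of 9 measured markers was 100820 to 108390 on resting WT, 79902 to 107980 on resting Gli2A Tg and 115430 to 118590 on resting Gli2R Tg arrays. On stimulated arrays it was lower, from 51296 to 59716.

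Most members had a lower level after stimulation: of 46, 40 fell in WT, 41 with Gli2A Tg and 33 with Gli2R Tg. Of 24 mitosis genes, 22 fell in WT, 24 for Gli2A Tg and 23 for Gli2R Tg cells, where 22%, 22.8% and 22.5% of all genes fell (limma, Benjamini-Hochberg adjusted p under 0.05). Their median difference was -2.11, -2.11 and -1.63, while the median of all genes was 0.00 in WT, 0.00 for Gli2A Tg and 0.01 for Gli2R Tg cells. Of 22 replication genes, 18, 17 and 10 fell, with medians of -1.20, -1.04 and -0.68. None of the mitosis genes rose. Among replication genes Fen1 rose in WT, and Fen1 and Mcm2 in Gli2R Tg cells, where 19.7% of all genes rose in WT, 20.2% for Gli2A Tg and 19.8% for Gli2R Tg cells. In whole-sample RNA, fewer cells of a type and less RNA per cell cannot be told apart.

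Mitosis genes were called in more of the genotypes than replication genes. The 3 stimulated arrays lay below the 3 resting arrays for all 24 mitosis genes in each genotype, where the groups did not overlap in 51.7%, 50.4% and 52.1% of all genes. For replication genes they did not overlap in 20, 16 and 17 of 22. In all 3 genotypes 21 of 24 mitosis genes fell; Cenpe, Kif11 and Ndc80 fell in 2 of them. Of 22 replication genes, 9 fell in all 3, 7 fell in 2, 4 (Pcna, Cdc45, Gins2 and E2f1) in 1, and Mcm2 and Fen1 in none. Of all genes, 22%, 22.8% and 22.5% fell in the single genotypes, so at most 22% could fall in all 3. The share of all genes that fell in 2 or 1 of them was not counted. The contrast of mitosis with replication genes is a description of counts, and the genes share the same arrays. The kinds also differed in level, with a median percentile among all genes of 60.14 for mitosis and 83.6 for replication genes. The part of level in the contrast was not tested.

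**Figure D1:**
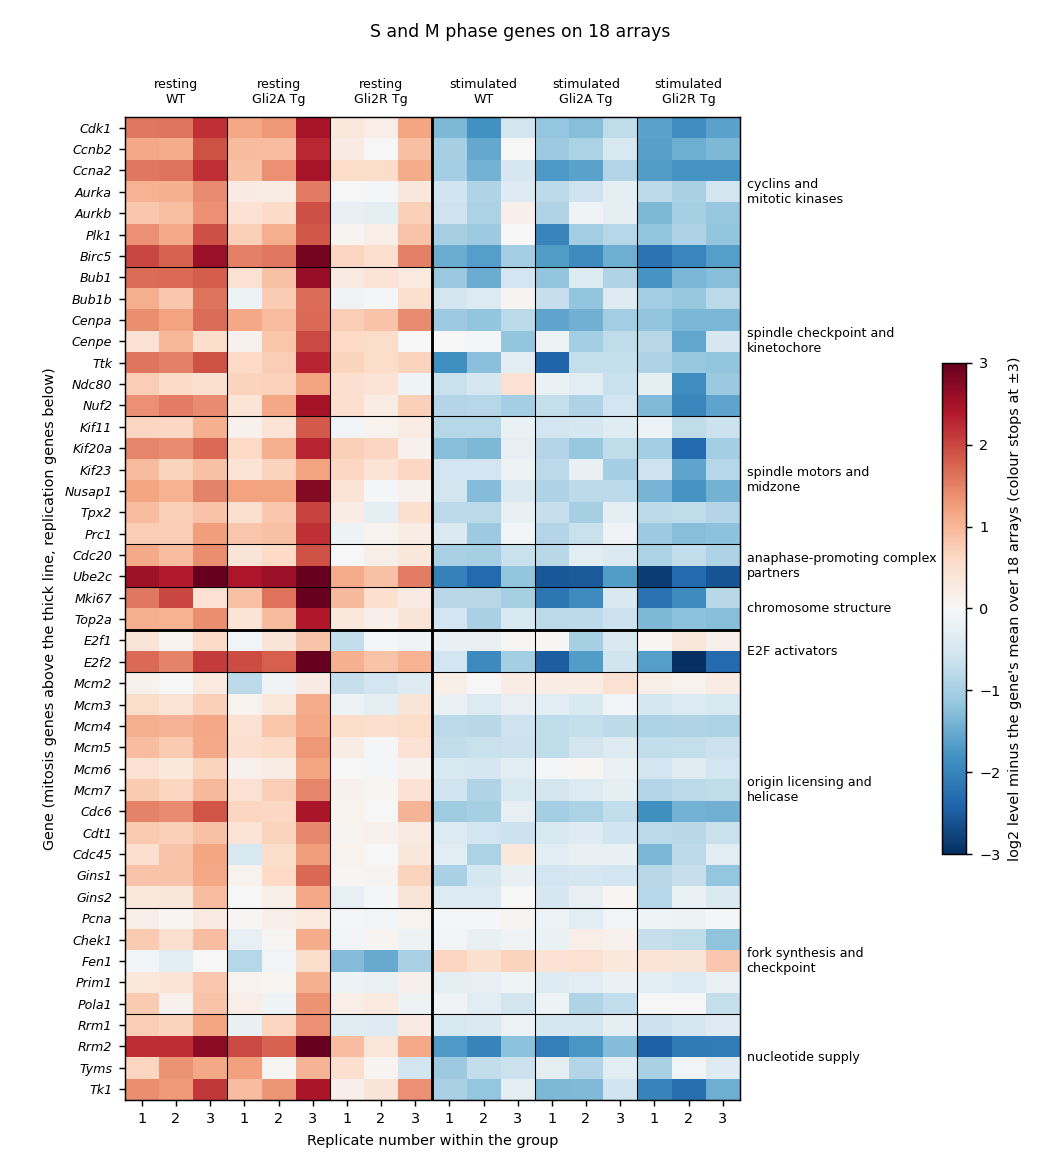
Log2 level of 46 S and M phase genes on 18 arrays, each minus the gene's mean over the arrays, with arrays in columns by group and genes in rows by role; red is above and blue below the mean, and colours stop at ±3. Resting WT and Gli2A Tg arrays are red and stimulated arrays blue for most genes, and resting Gli2A Tg replicate 3 is the deepest red. Resting Gli2R Tg arrays are pale, and some replication genes, such as Prim1, Rrm1 and E2f1, lie below their mean on several of them. Fen1 and Mcm2 do not share the pattern, and E2f1 is above its mean on the stimulated Gli2R Tg arrays.

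Among the kinases and their partners, all 7 measured genes fell in each genotype, with medians of -2.24, -2.52 and -1.86. Birc5, or survivin, a subunit of the chromosomal passenger complex that guides Aurora B, had the largest mean difference of them. On resting arrays Birc5 had log2 levels of 11.56, 11.32 and 12.13 in WT, 11.07, 11.14 and 12.41 for Gli2A Tg and 10.18, 10.06 and 11.07 for Gli2R Tg cells. After stimulation it had 8.06, 7.89 and 8.53 in WT, 7.88, 7.66 and 8.09 with Gli2A Tg and 7.34, 7.59 and 7.89 with Gli2R Tg. Every stimulated array lay below every resting array, and 2 of the 3 resting Gli2R Tg arrays lay well below the other resting ones. The difference was -3.51 ± 0.35 (SE) in WT, -3.66 ± 0.35 for Gli2A Tg and -2.83 ± 0.35 for Gli2R Tg cells (11.4-fold, 12.7-fold and 7.12-fold), with adjusted p = 1.15e-06, 6.91e-07 and 9.68e-06. Ccna2, the cyclin of S phase and early mitosis, gave -2.78, -2.99 and -2.48, and Cdk1, the kinase that starts mitosis, -3.04, -2.71 and -2.26. Ccnb2, a mitotic cyclin, gave -2.24, -2.22 and -1.86, and Plk1, a kinase of centrosomes and cell division, -2.18, -2.52 and -1.48. Both Aurora kinases also fell. Aurka, which acts at spindle poles, gave -1.80, -1.24 and -0.88, and Aurkb, which acts at centromeres, -1.51, -1.41 and -1.23.

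The 7 genes of kinetochores and the spindle checkpoint, which tie chromosomes to microtubules and delay anaphase until all are attached, had medians of -2.35, -2.09 and -1.70. All fell in each genotype apart from Cenpe and Ndc80 in WT. Cenpa, the histone variant that marks centromeres, had the largest difference averaged over the genotypes. On resting arrays Cenpa had log2 levels of 11.77, 11.57 and 12.05 in WT, 11.52, 11.29 and 12.06 for Gli2A Tg and 11.10, 11.23 and 11.79 for Gli2R Tg cells. Stimulated cells gave 9.29, 9.18 and 9.56 in WT, 8.78, 8.93 and 9.32 with Gli2A Tg and 9.17, 9.00 and 9.01 with Gli2R Tg. The resting arrays of the 3 genotypes ran into each other, and every stimulated array lay below all of them. The difference was -2.45 ± 0.23 (SE) in WT, -2.62 ± 0.23 for Gli2A Tg and -2.31 ± 0.23 for Gli2R Tg cells (5.48-fold, 6.14-fold and 4.97-fold), with adjusted p = 4.82e-07, 2.35e-07 and 8.45e-07. The checkpoint kinases Ttk and Bub1 gave -2.81, -2.49 and -1.70, and -2.79, -2.14 and -1.80, and the related Bub1b gave -1.46, -1.52 and -1.11. Nuf2 and Ndc80, partners in the complex that holds microtubules, gave -2.35, -2.09 and -2.10, and -0.84, -1.25 and -1.35; the kinetochore motor Cenpe gave -1.07, -1.63 and -1.35. Cenpe, Ttk and Ndc80 were dim after stimulation, with levels from 4.83 to 6.37, 4.15 to 6.25 and 4.72 to 7.04. Some of these values lay below the lower quartile of all genes (5.37).

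Of 6 genes of spindle motors and the midzone, 6, 6 and 5 fell, with medians of -1.45, -1.81 and -1.41. Kif20a, a kinesin of the midzone in late mitosis, had the largest mean difference. On resting arrays Kif20a had log2 levels of 8.24, 8.20 and 8.48 in WT, 7.38, 7.87 and 9.05 for Gli2A Tg and 7.49, 7.43 and 6.90 for Gli2R Tg cells. The stimulated arrays read 5.49, 5.42 and 6.52 in WT, 5.89, 5.64 and 6.01 with Gli2A Tg and 5.75, 4.43 and 5.76 with Gli2R Tg. No stimulated array reached a resting one, and several stimulated values lay near the lower quartile of all genes. The difference was -2.50 ± 0.42 (SE) in WT, -2.25 ± 0.42 for Gli2A Tg and -1.96 ± 0.42 for Gli2R Tg cells (5.65-fold, 4.77-fold and 3.89-fold), with adjusted p = 0.000183, 0.000431 and 0.00139. Nusap1, which bundles spindle microtubules, gave -1.99, -2.57 and -1.69, and Prc1, a crosslinker of midzone microtubules, -1.46, -1.85 and -1.25. Kif23, a motor of cytokinesis, gave -1.26, -1.44 and -1.57, and Tpx2, an activator of Aurora A, -1.44, -1.77 and -0.94. Kif11, the motor that pushes spindle poles apart, gave -1.42, -1.28 and -0.60, the last of which did not pass the test. With the mean of its probe sets Tpx2 in Gli2R Tg turned to 0.04.

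Ube2c, the ubiquitin-conjugating enzyme of the anaphase-promoting complex, had the largest difference of all members. On resting arrays Ube2c had log2 levels of 12.16, 11.98 and 12.62 in WT, 12.04, 12.17 and 13.25 for Gli2A Tg and 10.71, 10.48 and 11.14 for Gli2R Tg cells. With stimulation the levels were 7.58, 7.28 and 8.41 in WT, 7.06, 7.09 and 7.94 with Gli2A Tg and 6.76, 7.28 and 7.01 with Gli2R Tg. Resting Gli2R Tg arrays lay below the other resting arrays, every stimulated array lay below all resting ones, and the stimulated levels of the 3 genotypes ran into each other. The difference was -4.49 ± 0.36 (SE) in WT, -5.12 ± 0.36 for Gli2A Tg and -3.76 ± 0.36 for Gli2R Tg cells (22.5-fold, 34.9-fold and 13.6-fold), with adjusted p = 1.07e-07, 2.78e-08 and 6.08e-07. Cdc20, which brings substrates to the same complex, gave -2.03, -1.49 and -1.05. Mki67, the gene of the proliferation marker Ki-67 that coats mitotic chromosomes, varied more between replicates. On resting arrays Mki67 had log2 levels of 10.13, 10.54 and 9.01 in WT, 9.42, 10.17 and 12.36 for Gli2A Tg and 9.52, 9.05 and 8.78 for Gli2R Tg cells. After stimulation it had 7.72, 7.70 and 7.54 in WT, 6.37, 6.65 and 8.07 with Gli2A Tg and 6.31, 6.64 and 7.71 with Gli2R Tg. The groups did not overlap within any genotype, but resting WT spanned 9.01 to 10.54 and resting Gli2A Tg 9.42 to 12.36. The difference was -2.24 ± 0.65 (SE) in WT, -3.62 ± 0.65 for Gli2A Tg and -2.23 ± 0.65 for Gli2R Tg cells (4.72-fold, 12.3-fold and 4.68-fold), with adjusted p = 0.0109, 0.000279 and 0.0111. Top2a, the topoisomerase that untangles sister chromosomes, gave -1.86, -1.99 and -1.57.

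**Figure D2:**
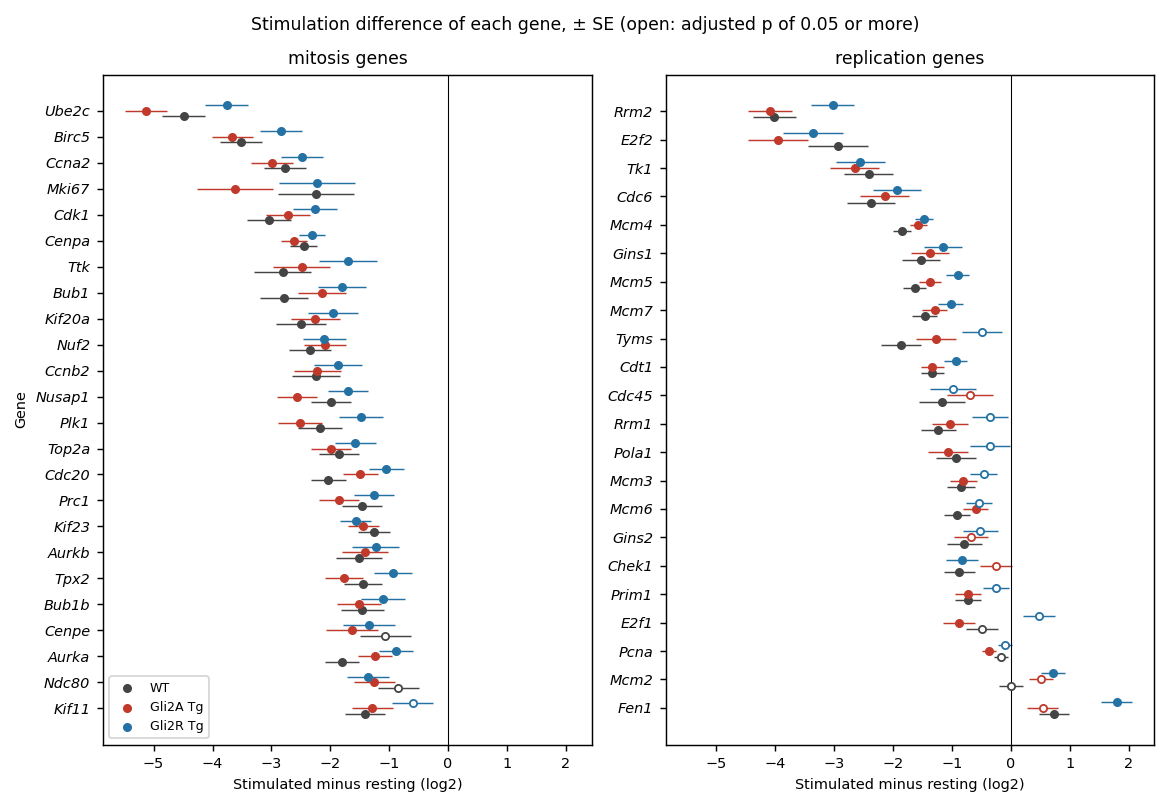
Stimulated minus resting difference (log2) ± SE of each mitosis gene (left) and replication gene (right) in 3 genotypes, ordered by their mean; filled points passed an adjusted p of 0.05 in limma and open points did not. All mitosis points lie below 0, from -5.12 to -0.60, while the replication genes run from -4.09 for Rrm2 to 1.80 for Fen1.

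The replication genes ranged widely by role. Of 4 genes of nucleotide supply, 4 fell in WT, 4 for Gli2A Tg and 2 for Gli2R Tg cells, with medians of -2.14, -1.96 and -1.52. Rrm2, the regulated subunit of ribonucleotide reductase, which makes deoxynucleotides, led them. On resting arrays Rrm2 had log2 levels of 12.56, 12.55 and 13.04 in WT, 12.32, 12.12 and 13.76 for Gli2A Tg and 11.26, 10.70 and 11.49 for Gli2R Tg cells. Stimulated cells gave 8.64, 8.34 and 9.13 in WT, 8.30, 8.60 and 9.06 with Gli2A Tg and 7.91, 8.23 and 8.26 with Gli2R Tg. The stimulated arrays of every genotype lay far below the resting ones, and resting Gli2R Tg arrays lay below those of WT and Gli2A Tg. The difference was -4.01 ± 0.37 (SE) in WT, -4.09 ± 0.37 for Gli2A Tg and -3.02 ± 0.37 for Gli2R Tg cells (16.2-fold, 17-fold and 8.12-fold), with adjusted p = 4.37e-07, 3.41e-07 and 7.41e-06. Rrm1, the large subunit of the same enzyme, gave -1.23, -1.03 and -0.35, of which the last did not pass. Tk1, the salvage thymidine kinase, gave -2.41, -2.65 and -2.55, and Tyms, thymidylate synthase, -1.86, -1.26 and -0.49, the last not passing; Tyms was dim, with all resting arrays between 4.88 and 6.78.

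E2f2, an E2F activator, fell while its relative E2f1 did so in Gli2A Tg only. On resting arrays E2f2 had log2 levels of 9.84, 9.62 and 10.23 in WT, 10.10, 9.91 and 11.51 for Gli2A Tg and 9.19, 8.99 and 9.16 for Gli2R Tg cells. The stimulated arrays read 7.56, 6.22 and 7.11 in WT, 5.67, 6.44 and 7.54 with Gli2A Tg and 6.48, 4.98 and 5.81 with Gli2R Tg. The groups did not overlap in any genotype, although stimulated Gli2A Tg arrays ran from 5.67 to 7.54. The difference was -2.94 ± 0.51 (SE) in WT, -3.95 ± 0.51 for Gli2A Tg and -3.36 ± 0.51 for Gli2R Tg cells (7.65-fold, 15.5-fold and 10.3-fold), with adjusted p = 0.000238, 1.34e-05 and 6.65e-05. E2f1 gave -0.49, -0.88 and 0.48, and its stimulated Gli2A Tg arrays overlapped the resting ones. With the mean of its probe sets, E2f1 in Gli2R Tg turned to -0.21.

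Of 11 genes that license origins or form the helicase, 10, 8 and 6 fell and Mcm2 rose in Gli2R Tg cells, with medians of -1.33, -1.29 and -0.94. Cdc6, a loader of the MCM helicase, had the largest mean difference. On resting arrays Cdc6 had log2 levels of 10.15, 10.07 and 10.54 in WT, 9.30, 9.28 and 11.11 for Gli2A Tg and 8.75, 8.66 and 9.67 for Gli2R Tg cells. With stimulation the levels were 7.59, 7.65 and 8.41 in WT, 7.64, 7.71 and 7.91 with Gli2A Tg and 6.82, 7.23 and 7.21 with Gli2R Tg. Every stimulated array lay below every resting array of its genotype. The difference was -2.37 ± 0.41 (SE) in WT, -2.14 ± 0.41 for Gli2A Tg and -1.93 ± 0.41 for Gli2R Tg cells (5.17-fold, 4.42-fold and 3.82-fold), with adjusted p = 0.00023, 0.000527 and 0.00125. Its partner Cdt1 gave -1.33, -1.33 and -0.94. Among the helicase subunits Mcm4 gave -1.85, -1.57 and -1.47, Mcm5 -1.63, -1.37 and -0.90 and Mcm7 -1.46, -1.29 and -1.02, all called. Mcm3 gave -0.84, -0.81 and -0.46 and Mcm6 -0.92, -0.59 and -0.54, of which the values in Gli2R Tg did not pass. Gins1 gave -1.53, -1.37 and -1.15, all called. Gins2, of the same complex, gave -0.79, -0.67 and -0.52, and Cdc45, the helicase cofactor, -1.17, -0.69 and -0.98, and only the WT value passed for each. With the mean of its probe sets Cdc45 turned to 0.20, 0.49 and 0.14, and Mcm6 in Gli2R Tg to 0.01.

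Mcm2, another subunit of the helicase, was called higher in Gli2R Tg cells. On resting arrays Mcm2 had log2 levels of 11.15, 11.04 and 11.32 in WT, 10.24, 10.93 and 11.28 for Gli2A Tg and 10.34, 10.46 and 10.63 for Gli2R Tg cells. After stimulation it had 11.21, 11.04 and 11.26 in WT, 11.26, 11.26 and 11.50 with Gli2A Tg and 11.20, 11.15 and 11.26 with Gli2R Tg. Stimulated arrays lay between 11.04 and 11.50, resting WT and Gli2A Tg arrays reached into that range, and the 3 resting Gli2R Tg arrays lay below them. The difference was 0.00 ± 0.20 (SE) in WT, 0.52 ± 0.20 for Gli2A Tg and 0.72 ± 0.20 for Gli2R Tg cells (1.65-fold in Gli2R Tg), with adjusted p = 0.997, 0.0504 and 0.00878. Without resting Gli2A Tg replicate 3, Mcm2 was called higher in Gli2A Tg as well (0.75, adjusted p = 0.0042 in limma). Its other probe set gave 0.87, 1.08 and 0.88 in the same order.

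Fen1, the flap endonuclease that trims Okazaki fragments, was called higher in WT and Gli2R Tg. On resting arrays Fen1 had log2 levels of 11.92, 11.67 and 12.01 in WT, 11.15, 11.92 and 12.52 for Gli2A Tg and 10.69, 10.49 and 11.03 for Gli2R Tg cells. Stimulated cells gave 12.65, 12.49 and 12.66 in WT, 12.44, 12.46 and 12.33 with Gli2A Tg and 12.40, 12.40 and 12.82 with Gli2R Tg. All stimulated arrays lay between 12.33 and 12.82, resting WT and Gli2R Tg arrays lay below them, and resting Gli2A Tg replicate 3 lay among them. The difference was 0.73 ± 0.26 (SE) in WT, 0.55 ± 0.26 for Gli2A Tg and 1.80 ± 0.26 for Gli2R Tg cells (1.66-fold, 1.46-fold and 3.49-fold), with adjusted p = 0.0339, 0.11 and 4.06e-05. The rise in WT lost its call without any 1 of the WT arrays other than resting replicate 3. A second, dimmer Fen1 probe set gave -0.80, -0.85 and -0.23, and the values in WT and Gli2A Tg were called when all probe sets were tested, and the mean of its probe sets was -0.03 in WT and -0.15 in Gli2A Tg. No other gene of fork synthesis and the checkpoint was called higher. Chek1, the checkpoint kinase of stalled forks, gave -0.87, -0.26 and -0.83, with the WT and Gli2R Tg values called; its Gli2A Tg value turned to 0.15 without resting Gli2A Tg replicate 3. The primase subunit Prim1 gave -0.73, -0.72 and -0.25, and Pola1, the catalytic subunit of polymerase alpha, -0.93, -1.06 and -0.35, called in WT and Gli2A Tg. Pcna, the sliding clamp, gave -0.17, -0.36 and -0.10, and only the Gli2A Tg value passed. The WT value of Pcna turned to 0.03 with median centring.

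**Figure D3:**
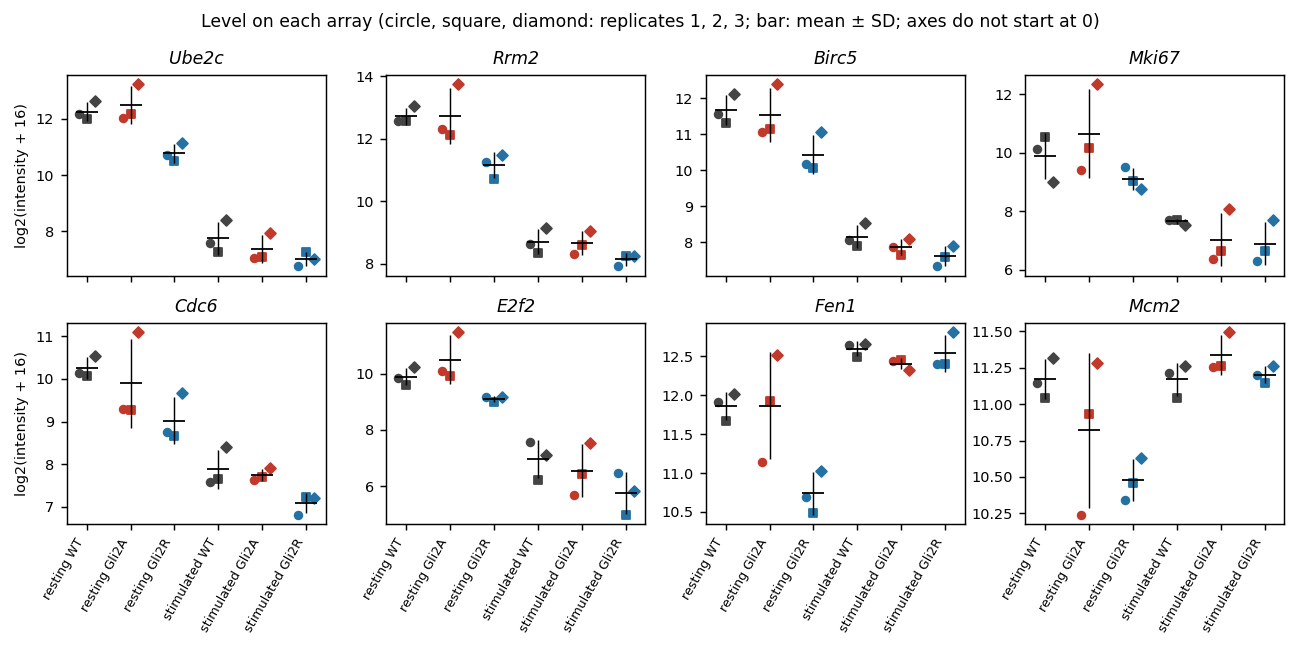
Log2 level of 8 members on each of 18 arrays, with the mean and SD of each group; axes do not start at 0. Ube2c, Rrm2, Birc5, Mki67, Cdc6 and E2f2 are lower on all stimulated arrays, while stimulated arrays have Fen1 at 12.33 to 12.82 and Mcm2 at 11.04 to 11.50.

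One array weighed on the replication counts in Gli2A Tg cells. Without resting Gli2A Tg replicate 3, 11 replication genes fell in place of 17 and Fen1 and Mcm2 were called higher, while 24 of 24 mitosis genes still fell. Without stimulated Gli2A Tg replicate 2, 24 mitosis and 14 replication genes fell. For these fits the share of all genes called is not given here, so the counts cannot be set against it. Of 34 members with further probe sets, 58 such sets gave the same sign as the brightest in 46, 43 and 43 cases. A set opposed the brightest with both called in 2 cases in WT, 1 for Gli2A Tg and 2 for Gli2R Tg.

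Further genes of the same processes were counted in the same way, against 22%, 22.8% and 22.5% of all genes that fell and 19.7%, 20.2% and 19.8% that rose. Of 49 further mitosis genes, 36, 37 and 30 fell and 1 was called higher in each genotype, with medians of -1.49, -1.56 and -1.18. The kinetochore gene Zwint and Foxm1, named after their values were seen, had higher means with stimulation in each genotype. Zwint went from 11.74, 11.66 and 11.77 to 12.31, 12.44 and 12.23. Foxm1 went from 6.98, 6.91 and 6.40 to 7.69, 7.47 and 7.81. The largest differences were in Cdc25b, a phosphatase that activates Cdk1 (-2.61, -3.41 and -3.12), Cdca3 (-2.79, -3.12 and -2.28), the spindle gene Dlgap5 (-2.12, -2.22 and -3.07) and the kinetochore gene Cenph (-2.83, -1.82 and -2.61). Of 43 further replication genes, 26, 23 and 20 fell and 4, 6 and 6 rose, the latter a smaller share than among all genes, with medians of -0.78, -0.76 and -0.66. Uhrf1, which helps copy DNA methylation, fell most (-2.97, -3.31 and -2.52), followed by the checkpoint adaptor Clspn (-2.12, -2.70 and -2.07) and the clamp loader gene Dscc1 (-2.39, -2.04 and -2.20). Ung, the uracil-DNA glycosylase, rose by 2.04, 2.51 and 2.53.

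Genes of G1 and of the passage into S phase were split. Of 23 measured, 9 rose in each genotype, where 19.7%, 20.2% and 19.8% of all genes rose, and 11, 10 and 8 fell, where 22%, 22.8% and 22.5% did, with medians of -0.55, -0.50 and -0.13. Myc, a driver of growth and cell cycle entry, rose by 2.66, 2.37 and 2.78, and E2f5 by 3.08, 3.20 and 3.25. Rbl2, the pocket protein p130 that holds E2F targets silent in quiescent cells, fell (-3.21, -3.57 and -3.62), as did Cdkn1b, the inhibitor p27 (-2.88, -3.45 and -3.02).

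Markers of some other cell types fell as well, where 22%, 22.8% and 22.5% of all genes fell and 19.7%, 20.2% and 19.8% rose. Of 15 measured erythroid markers, 12, 14 and 9 fell, with medians of -2.71, -2.89 and -1.90. Their summed intensity was 59681 to 81432 on resting WT, 54879 to 135030 on resting Gli2A Tg and 20956 to 40674 on resting Gli2R Tg arrays, and 2902 to 13757 on stimulated arrays. Of 13 macrophage and myeloid markers 12 fell in each genotype, with medians of -5.37, -4.57 and -5.10, from sums of 48847 to 120070 to sums of 1734 to 6344. Granulocyte precursor markers fell in 6, 7 and 6 of 9 and plasma cell markers in 4 of 4 in each genotype. B cell markers fell in 1, 2 and 2 of 8 and rose in 0, 1 and 1, and CD8 T and NK cell markers fell in 3, 4 and 4 of 7 and rose in 2, 2 and 2. The B cell counts were near the shares of all genes. T cell markers fell in 6, 5 and 7 of 9 and rose in 0, 1 and 0. The erythroid genes Klf1 and Alas2 had resting group means of 10.82 to 12.61 and 9.51 to 13.69. Hba-a1 had resting group means of 4.65 to 4.68, below the lower quartile of all genes (5.37), so its differences say little. The part of these cells in the members' differences was not tested.

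**Figure D4:**
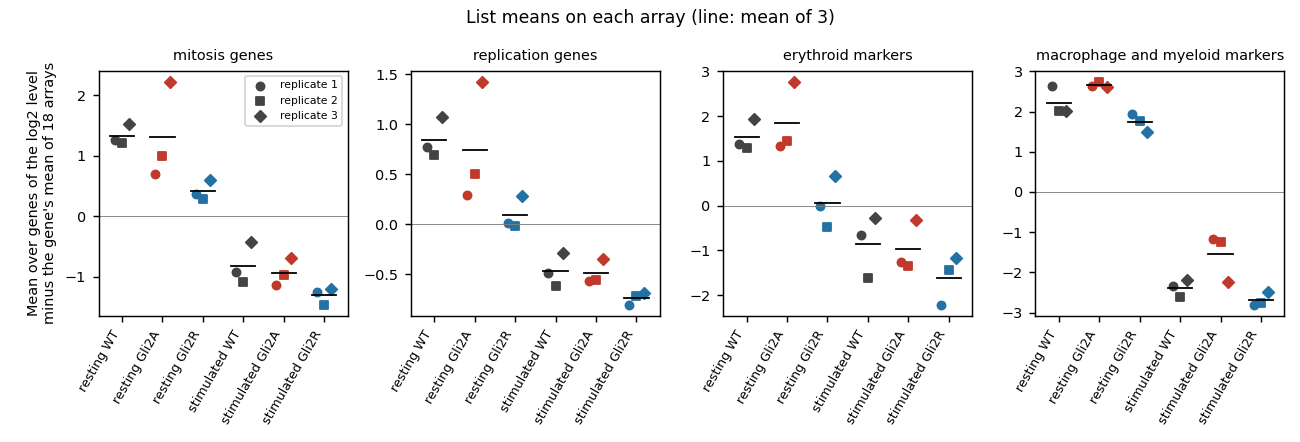
Mean over the genes of a list of the log2 level minus each gene's mean of 18 arrays, for mitosis genes, replication genes, erythroid markers and macrophage and myeloid markers, on each array by group, with a line at the mean of 3. Resting Gli2A Tg replicate 3 is the highest array for the mitosis (2.23), replication (1.42) and erythroid (2.77) lists, and the resting Gli2R Tg arrays are the lowest resting ones for all of these.

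In resting cells no member passed the test between Gli2R Tg and WT, but all 46 had a lower mean in Gli2R Tg, with a median difference of -0.83 against 0.01 for all genes. The groups did not overlap in 38 of 46 members, 20 of mitosis and 18 of replication, against 17.8% of all genes. Limma called 0 members and 0% of all genes, and 34 members had an unadjusted p under 0.05. The lowest adjusted p values belonged to Fen1 (-1.13 ± 0.26, adjusted p = 0.145), Rrm2 (-1.56 ± 0.37, adjusted p = 0.161) and Ube2c (-1.47 ± 0.36, adjusted p = 0.177).

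By role, the median in resting Gli2R Tg minus WT cells was -1.07 for cyclins and kinases, -0.96 for kinetochore genes, -0.78 for spindle motors, -1.04 for nucleotide supply, -0.63 for licensing and helicase genes and -0.57 for fork genes. Erythroid markers had a median of -1.73 in the same comparison, with 14 of 15 below 0 and 0 called. Granulocyte precursor markers had a median of -1.63, with 9 of 9 below 0. For macrophage and myeloid markers it was -0.49, with 12 of 13 below 0. T cell markers went the other way, with a median of 0.26 and 9 of 9 above 0. None of these lists had a call. Of the further lists, 45 of 49 mitosis genes were below 0 with a median of -0.69, and 37 of 43 replication genes with a median of -0.37. Without resting Gli2A Tg replicate 3, which is in neither group, 5 mitosis and 4 replication genes were called lower, and other settings of the fit called up to 12 members. The share of all genes called in those fits is not given here, so these counts cannot be set against it. The part of erythroid, myeloid or other cells in this difference was not tested.

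Between resting Gli2A Tg and WT cells limma called 0 members, where it called 0.55% of all genes, and 0 had an unadjusted p under 0.05. The median difference was -0.08, 31 members lay below 0 and 15 above, and the groups overlapped for all 46 members, against 15.3% of all genes without overlap. The lowest adjusted p belonged to Mcm4 (-0.27 ± 0.15, adjusted p = 0.578). Without resting Gli2A Tg replicate 3, 44 of 46 members lay below 0 with a median of -0.46, and again 0 were called.

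In resting cells 4 members were higher in Gli2A Tg than in Gli2R Tg, a comparison in which 2.4% of all genes were called, 1.57% higher and 0.83% lower. Ube2c differed by 1.71 ± 0.36 (3.27-fold, adjusted p = 0.0217), Rrm2 by 1.58 ± 0.37 (adjusted p = 0.037), Nusap1 by 1.56 ± 0.34 (2.96-fold, adjusted p = 0.0264) and Fen1 by 1.13 ± 0.26 (2.18-fold, adjusted p = 0.0359). For Nusap1 the resting levels were 10.39, 10.39 and 11.94 for Gli2A Tg and 9.58, 9.12 and 9.31 for Gli2R Tg cells, with 10.35, 10.21 and 10.66 in WT. All 3 Gli2A Tg arrays lay above all 3 Gli2R Tg arrays for each of the 4 genes. The median over 46 members was 0.73, all were above 0 and 16 did not overlap, against 20.3% of all genes. The count of 4 became 0 without resting Gli2A Tg replicate 3, without resting Gli2R Tg replicate 1 or without replicate 2 of that group, and with the arrays of these 2 groups alone. Without resting Gli2A Tg replicate 1 it was 5 mitosis and 6 replication genes, and the share of all genes called in that fit is not given here. The mitosis count fell from 2 to 1 without resting Gli2R Tg replicate 3, and the replication count from 2 to 1 without resting Gli2A Tg replicate 2, stimulated WT replicate 1, stimulated Gli2A Tg replicate 1 or stimulated Gli2R Tg replicate 2. The median was 0.35 and 42 of 46 members were above 0 without resting Gli2A Tg replicate 3. Of 15 erythroid markers all were above 0 here with a median of 1.48, and Alas2 (4.18 ± 0.59, adjusted p = 0.00194), Slc4a1 (3.80 ± 0.86, adjusted p = 0.0322) and Trim10 (2.68 ± 0.63, adjusted p = 0.0385) were called higher. Macrophage and myeloid markers had a median of 1.09, with 12 of 13 above 0. T cell markers went the other way, with a median of -0.31, 8 of 9 below 0 and 1 called lower. The part of these cells in the members' difference was not tested. This comparison and those with WT share arrays, so their values are set side by side only.

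**Figure D5:**
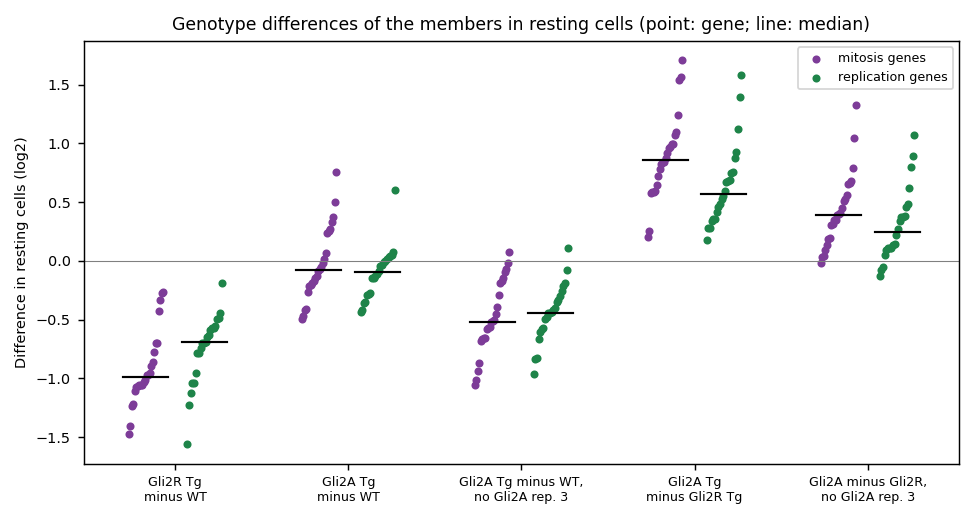
Differences of 46 members between genotypes in resting cells (log2), with mitosis genes and replication genes apart and a line at each median; the comparisons that involve Gli2A Tg are shown with all arrays and without Gli2A Tg replicate 3. All points of Gli2R Tg minus WT lie below 0, and leaving out replicate 3 moves the median over all members of Gli2A Tg minus WT from -0.08 to -0.46.

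In stimulated cells limma called 0 members in each of the 3 comparisons, where 0.137% of all genes were called in Gli2A Tg against WT, 0.044% in Gli2R Tg against WT and 0.231% in Gli2A Tg against Gli2R Tg. Gli2A Tg minus WT had a median of -0.05, with 3 members not overlapping against 18% of all genes, 0 members at an unadjusted p under 0.05 and Pcna at the lowest adjusted p (-0.21, adjusted p = 0.528). Gli2R Tg minus WT had a median of -0.41 with 39 of 46 below 0, 6 of them at an unadjusted p under 0.05, and 19 members did not overlap against 17.6% of all genes. Its lowest adjusted p values were 0.396 for Chek1 (-0.75), 0.424 for Tk1 (-1.10) and 0.489 for Ndc80 (-0.84). Gli2A Tg minus Gli2R Tg had a median of 0.32, with 37 above 0 and 2 of these and 1 of the 9 below 0 at an unadjusted p under 0.05, 19 members did not overlap against 16.6% of all genes, and Chek1 again had the lowest adjusted p (0.93, adjusted p = 0.216). In that comparison 1 replication gene was called higher without resting Gli2A Tg replicate 3. Erythroid markers had a median of -0.85 in Gli2R Tg minus WT, with 13 of 15 below 0, and of 0.63 in Gli2A Tg minus Gli2R Tg, with 13 of 15 above 0. Macrophage and myeloid markers had a median of 1.19 in the latter, with 11 of 13 above 0. Their part in the members' differences was not tested.

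The stimulation effect itself was compared between genotypes by a test of the difference of differences. Limma called 0 members in all 3 comparisons, where it called 0.011% of all genes for Gli2A Tg against WT, 0% for Gli2R Tg against WT and 0.11% for Gli2A Tg against Gli2R Tg. For Gli2R Tg minus WT the median was 0.39, with 41 of 46 members above 0 and 7 at an unadjusted p under 0.05. Its lowest adjusted p values were 0.421 for Fen1 (1.07), 0.432 for Tyms (1.38) and 0.47 for Mcm5 (0.73). In this comparison erythroid markers had a median of 0.78, with 13 of 15 above 0, and granulocyte precursor markers of 1.46, with 8 of 9 above 0. For Gli2A Tg against Gli2R Tg the lowest were 0.207 for E2f1 (-1.36), 0.229 for Fen1 (-1.26) and 0.352 for Ube2c (-1.36), with 3 members at an unadjusted p under 0.05. There 1 replication gene was called lower without resting Gli2A Tg replicate 1, and erythroid markers had a median of -1.07, with 13 of 15 below 0. The part of these cells was not tested. For Gli2A Tg against WT the lowest was 0.569 for Mcm2 (0.52), with 0 members at an unadjusted p under 0.05.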

How the data were processed

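RNA of 18 samples was measured on Affymetrix 3' expression arrays. The authors deposited 1 intensity per probe set on a linear scale, made with the affy tool per the submitters' processing notes (version not given in the sources used here). From the values, each array has a 2% trimmed mean of 500, so the deposited arrays are scaled to a common level. The background correction is not stated in what was used here.

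From there, log2(intensity + 16) was taken and quantile normalized across the 18 arrays. Of 45101 probe sets, 34945 had 1 gene symbol in the platform annotation, 932 several, 9160 none and 64 were controls; 34741 of those with 1 symbol matched a current gene by Entrez identifier and 0 were renamed. The brightest probe set stood for each of 18193 genes. Limma 3.58.1 in R 4.3.3 fitted the 6 group means over all 18 arrays, and p-values were Benjamini-Hochberg adjusted over all genes in each comparison, with calls at an adjusted p under 0.05. The fit was tested on simulated data. Differences are in log2 units and a fold is 2 to that power. The members and all lists were chosen with earlier results of these data known.

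Values on every array were given for the member with the largest stimulation difference in each role group and for members called higher with stimulation. Nusap1, called between genotypes, was given on the resting arrays only. Where none was called, the lowest p-values were given. The 4 largest differences of each further cell cycle list were named, and Zwint and Foxm1 were named after their values were seen.

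Replicate numbers carry no stated pairing and were not taken as pairs. Alternatives were other scaling, other pseudocounts, a filter on low values, the mean of probe sets, array weights, a trended and robust variance, a replicate block, the compared arrays alone, and leaving out each array.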

Additional observations from a re-analysis of the deposited data

How the results depend on the processing

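Counts of mitosis genes that fell with stimulation stayed within 1.5 times of the reported count under every alternative run. With 1 array left out they were 21 to 23 in WT, 24 for Gli2A Tg and 19 to 24 for Gli2R Tg. The counts of replication genes were less stable, and the cause was not tested. Those that fell in Gli2A Tg numbered 10 with the compared arrays alone and 11 to 19 with 1 array left out. Replication genes that rose in WT numbered 0 with the mean of probe sets and 0 to 1 with 1 array left out. In Gli2A Tg they numbered 2 with median centring, the deposited scaling and array weights. They numbered 1 with log2(value + 64), genes above the median level, the mean of probe sets, a trended and robust variance and the replicate block, and 0 to 2 with 1 array left out.

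For resting Gli2R Tg minus WT, lower calls were 5 mitosis and 7 replication genes with array weights, 2 and 1 with the replicate block, and 1 replication gene with a trended and robust variance. With 1 array left out they were 0 to 5 and 0 to 4. For resting Gli2A Tg minus Gli2R Tg, mitosis genes called higher numbered 4 with genes above the median level, 1 with the mean of probe sets, 6 with the replicate block and 0 with the compared arrays alone. Replication genes numbered 1 with median centring or the deposited scaling, 0 with log2(value + 1), 5 with genes above the median level, 0 with the mean of probe sets, 5 with a trended and robust variance and 0 with the compared arrays alone. With 1 array left out these were 0 to 5 and 0 to 6. In the stimulated comparison of Gli2A Tg with Gli2R Tg, replication genes called higher were 0 to 1, and in that of their stimulation effects those called lower were 0 to 1. Shares of all genes called under these alternatives are not given here, so the counts do not set members against other genes. The replicate block moved no other count of calls past 1.5 times. Deviations of arrays with the same number correlated from -0.058 to 0.104 over 45 pairs (median 0.020), against -0.108 to 0.052 over 90 pairs with other numbers (median -0.0093). Of 18 arrays, 12 correlated best with arrays of their own number, a hint from the data and not from the design.

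Signs turned as follows, in stimulated minus resting. Mcm2 in WT gave -0.0097, -0.061, -0.019 and -0.043 without resting WT replicates 1 and 2 and stimulated WT replicates 1 and 3, with a range of -0.061 to 0.075 over all arrays left out. Pcna in WT gave 0.034 with median centring, which moved the median of all genes by 0.13 in WT and 0.11 in Gli2A Tg. Chek1 in Gli2A Tg gave 0.15 without resting Gli2A Tg replicate 3, and ran from -0.53 to 0.15 with 1 array left out. With the mean of probe sets Cdc45 gave 0.20 in WT, 0.49 for Gli2A Tg and 0.14 for Gli2R Tg, Fen1 gave -0.034 in WT and -0.15 in Gli2A Tg, and in Gli2R Tg Tpx2 gave 0.035, Mcm6 0.011 and E2f1 -0.21. Dim members, near the lower quartile of all genes, have differences that the added 16 makes smaller.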

Other observations

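Several members had a dimmer probe set that moved against the brightest one, and these are given as values with no explanation. For Cdc45 the dimmer set had a mean level of 6.09 and gave 1.57 in WT, 1.68 for Gli2A Tg and 1.26 for Gli2R Tg for stimulated minus resting, all called when every probe set was fitted by limma. For Tpx2 a set with a mean level of 6.02 gave 0.85, 1.17 and 1.17, and another at 5.97 gave 0.85, 0.19 and 1.52. For Tyms a set at 4.91 gave 0.31, 0.07 and 1.02. For Mcm3 a set at 8.91 gave 0.53, 0.18 and 0.32. For Mcm4 a set at 11.10 gave -0.55, 0.23 and 0.38, and for Mcm6 a set at 11.37 gave -0.47, 0.03 and 0.19, so both opposed the brightest set in the transgenic cells.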
